A study of Rattus norvegicus with 180 samples.

Results

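The kidneys of 3 rats were compared with 54 other organs of the same rats, miRNA by miRNA, to find which microRNAs (miRNAs) were present at higher or lower levels in kidney than elsewhere in the body. The kidney samples were taken by their labels, and they were 3 perfused kidneys (rats 4, 5 and 6) and 3 kidneys that were not perfused (rats 1, 2 and 3), which served as a repeat, out of 180 samples in the whole series. The other organs of rats 4 to 6 gave 162 samples. All 6 animals were male Sprague-Dawley rats of 10 weeks. Rats 4 to 6 were perfused with saline before the organs were removed, and rats 1 to 3, which had no treatment, gave only liver, kidney, lung, heart atrium and heart interventricular septum. Each sample was total RNA on a 1-color array. The kidney was taken whole, with cortex, medulla and papilla, so tubules, glomeruli, vessels and other kidney cells were measured together. Other samples were parts of an organ: duodenum, jejunum, ileum, cecum, colon and rectum were mucosal epithelium scraped from the gut wall, and liver was one lobe. In such samples fewer cells of a type and less RNA per cell cannot be told apart.

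miRNAs are short RNAs that bind messenger RNAs through a seed near their 5′ end and lower the output of those messengers. miRNAs with the same seed are grouped in families, and neighbouring miRNA genes are often transcribed together. The kidney is built mainly of tubular epithelium, which arises from intermediate mesoderm of the trunk. miR-192 and miR-194 are known from kidney, liver and gut epithelium, miR-204 from kidney and eye, the miR-30 family from kidney podocytes and tubules, the miR-200 family from epithelia in general, and miR-10 and miR-196 from the HOX gene clusters that pattern the body axis.

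The mature sequences of the miRNAs that carry the results are shown 5′ to 3′, with the seed (bases 2 to 8) in capitals, as RefSeq gives them for the rat assembly GRCr8. Of 41 miRNAs looked up, 36 had a mature sequence there, among them 19 of the 22 that were higher in kidney. The array names many miRNAs without an arm, and for these the arm usually counted as the main product was taken. The miR-192 group is shown first because miR-192 and miR-215 have the same seed but differ in kidney.
miR-192: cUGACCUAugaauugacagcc
miR-215: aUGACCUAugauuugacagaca
miR-194: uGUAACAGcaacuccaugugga
The miRNAs of the HOX clusters follow. miR-196a and miR-196b have the same seed, and miR-10a-5p and miR-10b do not in these entries.
miR-10a-5p: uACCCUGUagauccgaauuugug
miR-10b: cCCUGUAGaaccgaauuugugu
miR-196a: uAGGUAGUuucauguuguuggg
miR-196b: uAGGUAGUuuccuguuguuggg
The members of the miR-30 family that were higher in kidney as main arms share their seed.
miR-30a: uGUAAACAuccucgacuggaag
miR-30c: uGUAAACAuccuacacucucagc
miR-30e: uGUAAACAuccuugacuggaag
The miR-200 family is represented by the pair on chromosome 4, whose seeds differ from each other. miR-200b, miR-200a and miR-429 had no entry for the arm measured.
miR-200c: uAAUACUGccggguaaugaug
miR-141: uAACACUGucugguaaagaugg
The last sequences are miR-130a, for which kidney had the highest mean of all organs, and miR-204, one of the miRNAs taken as kidney markers here.
miR-130a: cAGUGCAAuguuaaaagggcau
miR-204: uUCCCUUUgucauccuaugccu

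The kidney arrays were alike. Signals are given as scaled signal intensity, which is the scanner's background-subtracted signal brought to a common level between arrays, with values under 10.8 set to that floor. Detection of a miRNA required the scanner's flag for signal well above background on more than 50% of the spots used. The perfused kidneys detected 138, 150 and 162 miRNAs, the kidneys that were not perfused 155, 145 and 147, and the other perfused arrays 86 to 244 (median 164). Over log2 values the 3 perfused kidneys correlated at 0.9957 to 0.9981 with each other and at 0.993 to 0.995 with the kidneys that were not perfused. The nearest array of each kidney array was another kidney in 6 of 6 cases, and the highest correlation with any array of another organ was 0.903, with thyroid and lung. Each perfused kidney lay on a slide and scan day of its own, so rat, slide and scan day cannot be told apart for them.

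A total of 345 miRNAs were detected on all 3 arrays of at least 1 organ and were tested. None of these (0) entered through kidney alone. A miRNA was called when the log2 difference between kidney and the mean of the 54 other organs was at least 1 and limma's p, adjusted by Benjamini-Hochberg over the 345 miRNAs, was under 0.05. By this rule 22 miRNAs (6.38%) were higher and 42 (12.2%) were lower in kidney, 64 in all (18.6%). The median log2 difference of all miRNAs tested was -0.25. The split of calls rested on the scaling. With arrays scaled by the 75th percentile over all miRNAs, 50 were higher and 26 lower, and 34 were higher and 32 lower in the normalized table of the authors. With background correction by normexp 10 were higher and 26 lower. The test measures differences against the spread between rats and not against the spread between organs: with no minimum difference 58 were higher (16.8%) and 177 lower (51.3%), 68.1% of all. For this reason the place of kidney in the order of 55 organs is given beside many of the differences. With it, or in its place, stands the number of organs above or below kidney at an adjusted p under 0.05. All 22 higher calls were detected on 3 of 3 perfused kidneys. Of the 42 lower calls, 23 were detected on 0 kidney arrays, 11 on 1 or 2 and 8 on 3. No miRNA was higher in kidney than in each of the 54 organs by limma's intersection-union test (0 of 345 after adjustment and 0 at an unadjusted p under 0.05), and the spread between organs was wide. Only 2 of the 22 higher calls, miR-130a and miR-30c, lay more than 2 SD of the organ means above their average.

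**Figure D1:**
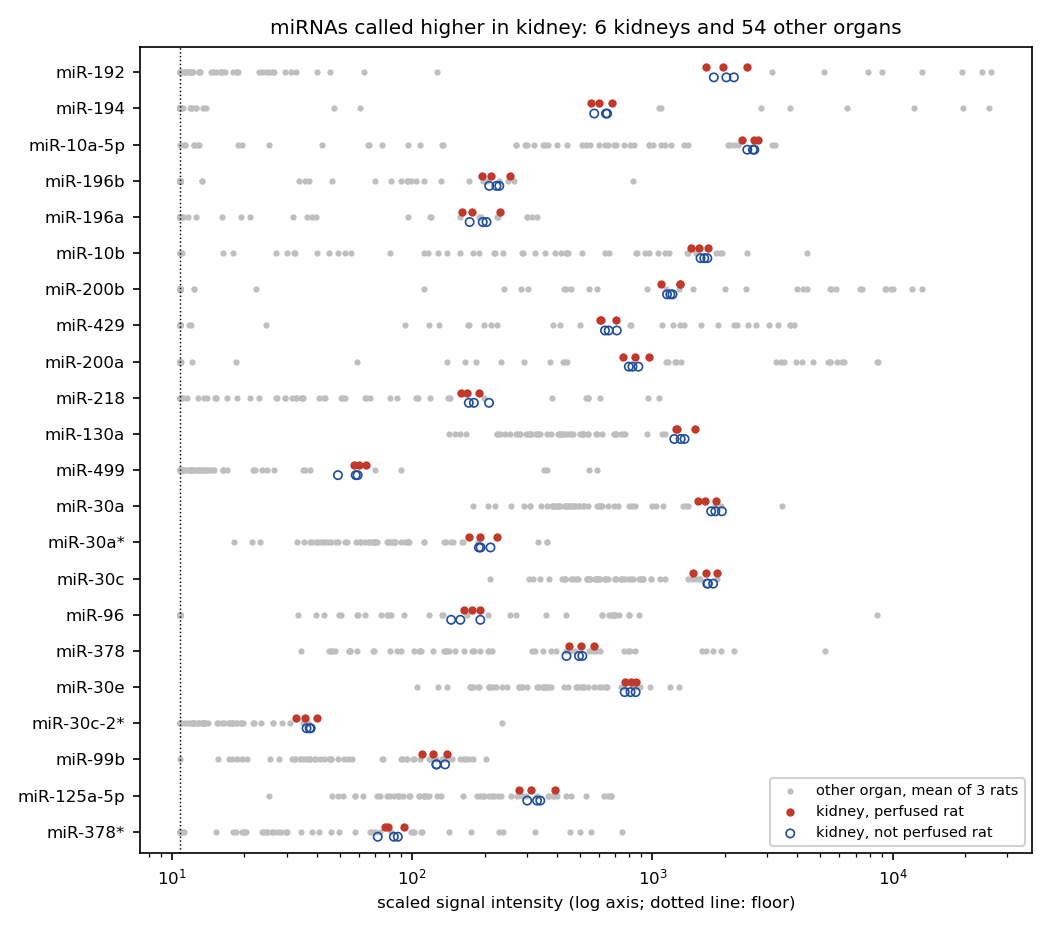
Scaled signal intensity (log axis) of the 22 miRNAs called higher in kidney, with the 3 perfused kidneys as filled red points, the 3 kidneys that were not perfused as open blue circles and the means of the 54 other perfused organs in grey, ordered by log2 difference. The 6 kidneys lie close together in every row, and for most miRNAs some other organs lie to their right, with miR-130a as the exception.

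miR-192 had the largest difference of all. Its scaled signal was 2482, 1973 and 1666 in perfused rats 4, 5 and 6 and 2029, 1800.0 and 2182 in rats 1, 2 and 3 without perfusion, so both sets of kidneys overlapped. The means of the other organs ran from 10.8 to 25731 with a median of 16.2. The log2 difference was 5.52 (SE 0.20, adjusted p = 2.74e-49), a 46.0-fold higher signal than the geometric mean of the organs. The call was kept under 27 of 27 alternatives, but the size of the difference ran from 3.23 to 6.05. Kidney was above 46 organs, below 7, and not distinguished from glandular stomach (3154 ± 895, SD, n = 3). The organs above kidney were duodenum (25731 ± 7799), jejunum (23538 ± 4074), ileum (19365 ± 1689), rectum, colon, cecum and liver (5175 ± 140.1). After kidney the next organ in the order was esophagus at 127 ± 88.3. The high levels of miR-192 were thus those of gut mucosa, liver, glandular stomach and kidney, with a wide gap to the other organs. The gut samples were epithelium alone and the kidney was whole tissue, and the part of this in their order was not tested.

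miR-194, encoded beside miR-192, had the same 8 organs above kidney in the order of means. The kidneys had 679, 598 and 557, and those without perfusion 647, 572 and 640.3. The log2 difference was 4.40 (SE 0.16, adjusted p = 1.75e-48), and kidney was again in place 9, above 46 organs and below 8. Over 26 alternatives the difference of miR-194 ran from 1.85 to 5.31, and the call was kept in all. Duodenum was highest (25104 ± 8683), and liver (1086 ± 91.6) and glandular stomach (1069 ± 293) were the nearest above kidney. In GRCr8 miR-194 has 2 genes. Mir194-2 lies at chr1:212994024-212994108, before Mir192 (chr1:212994209-212994318) on the same strand, and Mir194-1 lies at chr13:99382716-99382798 within the gene Iars2 and before Mir215 (chr13:99382990-99383086). miR-215 was at the floor on 6 of 6 kidney arrays and had 30074 in duodenum, 20991 in jejunum and 9279 in ileum. Its log2 difference was -0.93 (SE 0.14, adjusted p = 4.63e-09), and that of the probe set from the older miRNA release, miR-215_v15.0, was -1.08 (SE 0.18, adjusted p = 1.59e-07). No kidney detected either, and the organ means were at least 1.72-fold and 1.90-fold higher. The call of miR-215_v15.0 was lost under 3 of 26 alternatives (up to -0.81, with a floor 4 times as high). Both miR-194 genes give the same mature sequence, so the array does not tell from which one the miR-194 of kidney came. miR-215 had only a bound in kidney, since its probes could not measure below the floor. The other arm, miR-192*, had 22.0, 18.8 and 20.1 and a log2 difference of 0.42, under the minimum, and it passed as higher under 2 of 26 alternatives (up to 2.12, with a floor 4 times as low). Of the 5 miRNAs tested in this group 2 were higher, 1 was lower and 2 were not called, with a median of 0.42 against -0.25 for all, beside 6.38% higher and 12.2% lower among all.

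miR-204, the other miRNA taken as a kidney marker, was not higher in kidney than in the average organ. It was detected on all 6 kidneys, with 114, 93.7 and 74.7 with perfusion and 105, 71.7 and 133 without. The other organs had a median of 93.8, and eyeball stood far above them at 13959 ± 1071, followed by optic nerve (2333 ± 592) and cerebellum (1565 ± 281). The log2 difference was -0.47 (SE 0.26, adjusted p = 0.0927), and kidney took place 28 of 55, above 14 organs, below 18 and not distinguished from 22. With the 75th percentile over all miRNAs the difference was 0.10. Against liver, lung, atrium and septum alone the kidney was higher in both sets of rats, by 2.98 in rats 4 to 6 (adjusted p = 2.61e-13) and 2.56 in rats 1 to 3 (adjusted p = 4.96e-12). In liver, lung, atrium and septum of rats 4 to 6 the means were 11.1 to 13.0. Whether miR-204 stood out in kidney thus depended on the organs it was compared with. miR-211, which shares the seed of miR-204, was at the floor on 6 of 6 kidneys. Of the 3 miRNAs tested in the miR-204 group 0 were called in either direction, with a median of -0.47, against -0.25 for all miRNAs, of which 6.38% were higher and 12.2% lower.

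**Figure D2:**
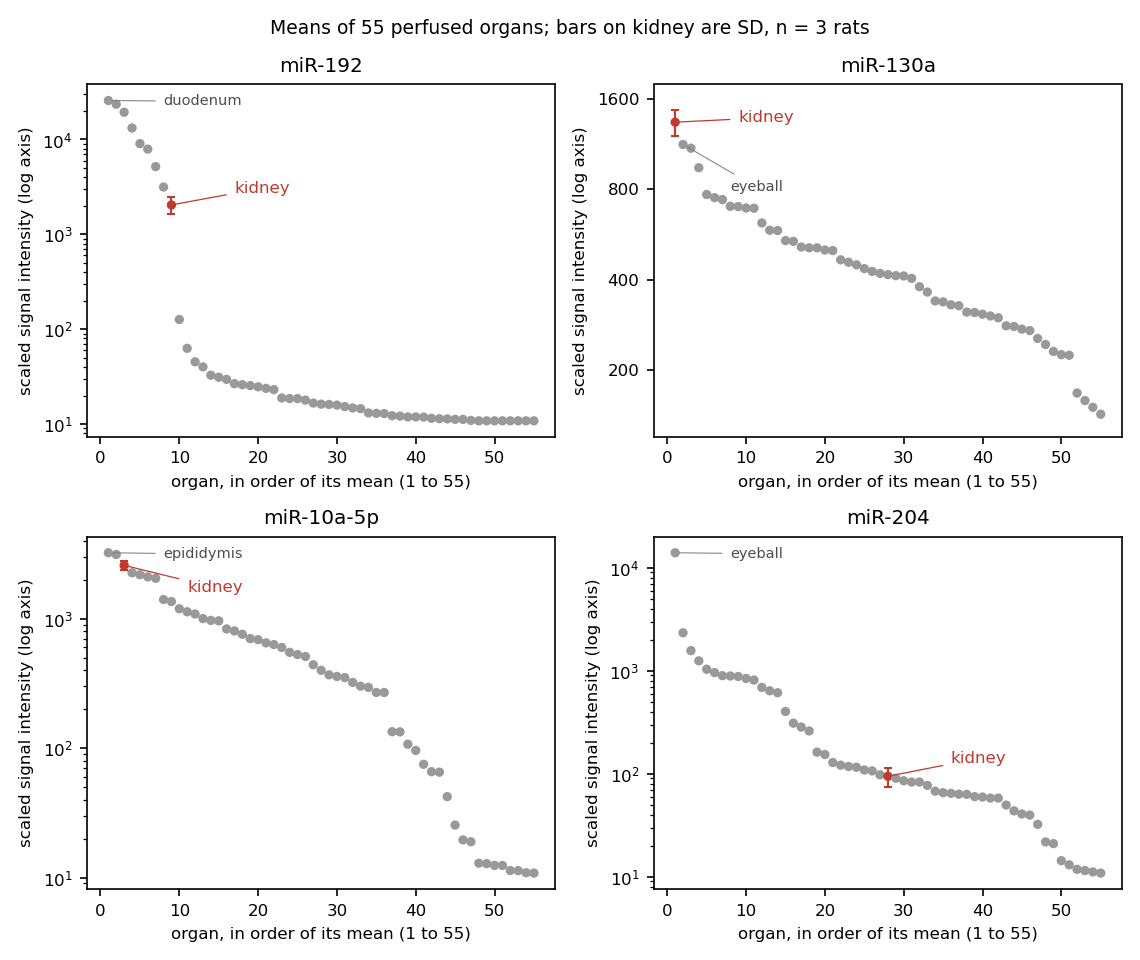
Mean scaled signal intensity (log axis) of 55 perfused organs in decreasing order for miR-192, miR-130a, miR-10a-5p and miR-204, with kidney in red (bar, SD of 3 rats) and the highest other organ named. Kidney is in place 9 for miR-192 above a gap, in place 1 for miR-130a, in place 3 for miR-10a-5p and in place 28 for miR-204.

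The miRNAs of the HOX clusters were the list with the highest median. Of the 6 tested, 4 were higher in kidney, 0 were lower and 2 were not called, with a median log2 difference of 2.99 against -0.25 for all miRNAs tested, beside 6.38% higher among all. miR-10a-5p and miR-10b kept their call under every alternative run, while miR-196a (0.84) and miR-196b (0.99) lost it after normexp and miR-196c turned to -0.24 with a floor 4 times as high and -0.41 after normexp. miR-196c passed as higher under 4 of 26 alternatives (up to 1.87, with a floor 4 times as low). miR-10a-5p, whose gene lies beside Hoxb4 on chromosome 10, had 2642, 2363 and 2759.9 in the perfused kidneys and 2618, 2653 and 2480.1 in the others. Kidney took place 3 of 55 and was below no organ. Epididymis (3236 ± 633) and colon (3137 ± 219.8) had higher means, and neither was distinguished from kidney, nor were cecum, adrenal gland, ileum and seminal vesicle. The log2 difference was 3.43 (SE 0.21, adjusted p = 3.19e-29). At the other end were pituitary gland, cerebellum and cerebral cortex, at 10.8 to 11.3. miR-10b, whose gene lies within the annotated bounds of Hoxd4 on chromosome 3, had 1709, 1444 and 1569 and a difference of 2.97 (SE 0.22, adjusted p = 3.39e-24). Epididymis was the only organ above kidney (4384 ± 798). Adrenal gland, the 3 parts of the spinal cord, colon, seminal vesicle and vein were among the 11 organs not distinguished from it. The brain regions hippocampus, thalamus and cerebral cortex were at the floor.

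miR-196b, which lies between Hoxa9 and Hoxa10 on chromosome 4, had 255, 195 and 212 in the perfused kidneys, and the median of the other organs was at the floor. Only cecum was higher (830.4 ± 375), while rectum, other prostate, vein, colon, bladder and ventral prostate were not distinguished. The log2 difference was 3.09 (SE 0.19, adjusted p = 7.41e-30). miR-196a, beside Hoxc10 on chromosome 7, had 232, 160.5 and 177 and a difference of 3.02 (SE 0.16, adjusted p = 4.09e-35). Here femoris muscle (332 ± 14.4), gastrocnemial muscle, ileum and cecum were higher, and vein, soleus muscle, colon, rectum and ischial nerve were not distinguished. The floor was the median for miR-196a as well. miR-196c, from the HOXB cluster like miR-10a, had 33.9, 21.8 and 33.4 and a difference of 0.78 (SE 0.13, adjusted p = 1.06e-07), which is under the minimum of 1. Its other arm, miR-196c*, was detected on 0 kidney arrays. Both miR-196a and miR-196b were at the floor in tongue, pituitary gland, eyeball, cerebellum, trachea and thyroid, and both were above it in the lumbar spinal cord (120.1 and 70.0).

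Of the 10 miRNAs tested in the miR-30 family, 5 were higher in kidney, 0 were lower and 5 were not called, with a median of 0.98, beside 6.38% higher among all. miR-30a kept its call under every alternative run. The call was lost for miR-30c with the median over all spots (0.84) and for miR-30e (0.94) and miR-30a* (0.61) after normexp. The differences of the 5 were smaller than those of the 4 HOX miRNAs called. miR-30a had 1829, 1551 and 1649.8 in perfused kidneys, 1827, 1945 and 1754 in the others, and a range of 179 to 3463 over the other organs. Its log2 difference was 1.59 (SE 0.12, adjusted p = 1.03e-23). Pancreas alone was higher (3463 ± 576), and interseptum, gastrocnemial and femoris muscle, parotid gland, brown adipose tissue and lung were not distinguished. miR-30c had 1853, 1470.1 and 1664, and kidney took place 2 of 55. The tissue labelled interseptum was highest (1853 ± 301) and was not distinguished from kidney. The difference was 1.31 (SE 0.12, adjusted p = 3.09e-18), with kidney above 48 organs and below 0. miR-30e, encoded beside miR-30c-1 within Nfyc on chromosome 5, had 858, 766 and 816 and a difference of 1.16 (SE 0.12, adjusted p = 8.24e-16). Of the minor arms, miR-30a* (225, 172 and 191) differed by 1.42. miR-30c-2* (40.3, 32.9 and 35.7) differed by 1.13, but by -0.05 with a floor 4 times as high and by -0.23 after normexp. miR-30d (0.41) and miR-30b-5p (0.40) did not reach the minimum, although both were detected on 3 of 3 kidneys. The differences within the family thus ran from -0.21 to 1.59.

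The miR-200 family, known for keeping epithelial cells epithelial, gave calls in both directions, and a difference between its genomic clusters was not tested. Of 8 miRNAs tested 3 were higher, 1 was lower and 4 were not called, with a median of -0.24, beside 6.38% higher and 12.2% lower among all. The 3 that were higher, miR-200b, miR-200a and miR-429, come from 1 cluster (hairpins from chr5:171929682-171929766 to chr5:171931495-171931589, within Ttll10). miR-200b had 1307, 1084 and 1302, with a difference of 2.82 (SE 0.35, adjusted p = 9.85e-12). miR-200a had 849, 753 and 963, with a difference of 2.60 (SE 0.36, adjusted p = 5.16e-10), and miR-429 had 707, 607 and 611, with 2.69 (SE 0.29, adjusted p = 2.69e-14). Kidney was above 32 to 34 organs and below 13 or 14 for these, with places 18 to 20. The organs above it were prostate (11999 ± 2969.7 for miR-200b in ventral prostate), intestine (scraped mucosa), glandular stomach, epididymis, seminal vesicle and salivary glands, and the organs at the floor included spleen, testicle and vein.

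The other cluster, on chromosome 4 (Mir200c at chr4:159209965-159210033 and Mir141 at chr4:159209525-159209618), was not higher. miR-141 had 51.1, 58.1 and 60.5 in kidney against 4320.0 in duodenum, and its difference was -0.61 (SE 0.27, adjusted p = 0.041), under the minimum. It passed as lower under 4 of 27 alternatives (down to -1.59, with a floor 4 times as high). miR-200c was measured by probe sets of both miRNA releases, and they disagreed in kidney. The set of the newer release was at the floor on 6 of 6 kidneys and was called lower, at -1.87 (SE 0.21, adjusted p = 2.32e-13), with the organ mean at least 3.29-fold higher. That call was lost under 1 of 26 alternatives (just under the minimum, with a floor 4 times as high). The set of the older release, miR-200c_v15.0, was detected on 3 of 3 perfused kidneys at a mean of 147 ± 15.9 and was not called, at -0.31 (SE 0.29, adjusted p = 0.319). It passed as lower under 2 of 27 alternatives (down to -1.23, after normexp). Against liver, lung, atrium and septum the older set was higher in kidney by 2.18 and miR-141 by 1.32. The level of miR-200c in kidney is therefore uncertain on this array. In ventral prostate miR-200c_v15.0 was 7905 and miR-141 was 2228. The log2 difference between kidney and ventral prostate was -3.26 for miR-200b and -1.76 for miR-429, and -5.73 for miR-200c_v15.0 and -5.28 for miR-141.

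Of the 137 miRNAs tested that were detected on 3 of 3 perfused kidneys, miR-130a was the only one with its highest mean of the 55 organs in kidney. It was picked for this place after the values were seen, so the values below describe it and are not a test. The perfused kidneys had 1498, 1254 and 1269.7 and the others 1359.7, 1232 and 1310.2. Every perfused kidney was above every one of the other 162 perfused arrays, of which the highest had 1226 (0 arrays were above the lowest kidney). Organ means ran from 143 in parotid gland to 1129.9 in eyeball. The log2 difference from all organs was 1.74 (SE 0.14, adjusted p = 8.71e-22), and kidney was above 52 organs. It was not distinguished from eyeball (0.24, adjusted p = 0.392) or lung (0.28, adjusted p = 0.407). The first place was not kept under every scaling: with the 75th percentile over all miRNAs kidney was in place 3, with a log2 difference of -0.28 from lung, and it stayed first under the 8 other scalings, floors and summaries tried. miR-130a has the seed of the miR-130 and miR-301 family and is known from endothelium.

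The remaining higher calls were led by other organs. miR-218 (189, 169 and 159, difference 1.84) was below the 8 regions of brain and spinal cord, of which cerebral cortex was highest (1063 ± 166), and above 41 organs. miR-499, which is encoded in a myosin heavy chain gene and is known from heart and slow muscle, was low but detected in kidney (57.5, 60.0 and 64.2, difference 1.66). Heart atrium (587 ± 120.5), septum, interseptum and soleus muscle were above it. The difference of miR-499 was -0.10 after normexp. miR-96, of the sensory miR-183 cluster, had a mean of 178 ± 13.8 (SD, n = 3) against 8569 in eyeball and differed by 1.27. miR-378, from the Ppargc1b locus of mitochondrial metabolism, had 506, 449 and 573 and was highest in brown adipose tissue (5200.1 ± 584), with a difference of 1.22. Its other arm miR-378* differed by 1.01, but lost its call under 6 of 27 alternatives, among them leaving out rat 4 (0.92), and turned to -0.10 after normexp. miR-99b (1.05) and miR-125a-5p (1.03), which are encoded in one cluster, were in places 15 and 14. Calls in this group were open to the processing. miR-99b lost its call under 6 of 27 alternatives (lowest 0.16, after normexp) and miR-125a-5p under 5 of 27 (lowest 0.44, after normexp), among them leaving out rat 4 (0.98 and 0.89). miR-96 (0.11), miR-218 (0.43) and miR-378 (0.79) lost theirs after normexp, and miR-96 (0.51) and miR-499 (0.20) also with a floor 4 times as high.

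Of the 42 lower calls, 23 were miRNAs that no perfused kidney detected. The largest differences were in miR-133b and miR-1, the miRNAs of striated muscle. miR-133b had 13.9, 10.8 and 15.6 in the perfused kidneys and 84187 ± 6819 in femoris muscle, with a difference of -4.21 (SE 0.72, adjusted p = 2.90e-07). miR-1 was detected on 0 kidneys, and the organ mean was at least 7.26-fold higher, with a fitted difference of -3.01 (SE 0.76, adjusted p = 3.82e-04) and a mean of 68072 in femoris muscle. Of the 7 miRNAs tested in the striated muscle list, 4 were lower and 1, miR-499, was higher, with a median of -1.21. Among the lower ones, miR-133a lost its call under 3 of 26 alternatives (up to -0.68, with a floor 4 times as high), and so did miR-206 (up to -0.97, with the same floor), in one of them without rat 5 (-1.44). Of the 4 in the neuron list, miR-124, miR-9, miR-9* and miR-128, all 4 were lower, with a median of -1.51, beside 12.2% lower among all miRNAs. miR-124 was at the floor on 6 of 6 kidneys and had 11001 in cerebellum. The call of miR-9 was lost under 8 of 26 alternatives, among them leaving out rat 4 (-0.98) or rat 5 (-0.87), and with a floor 4 times as low its difference was 0.025, not below 0. miR-9* (-0.38, with that floor) and miR-128 (-0.88, with the 75th percentile over all miRNAs) each lost theirs under 1 alternative. miR-338 (27.1, 21.3 and 16.7, difference -2.41), known from myelinating cells, had 4470.4 in the cervical spinal cord. miR-127 and miR-434, which are neighbours on chromosome 6 in the imprinted cluster expressed from the maternal chromosome, were at the floor on 6 of 6 kidneys. Their organ means were at least 4.46-fold and 4.31-fold higher, with the highest levels in pituitary gland (1996) for miR-127 and in thalamus (1622) for miR-434.

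Only 8 of the 42 miRNAs called lower were detected on 3 of 3 perfused kidneys. let-7i, a member of the let-7 family that all organs expressed, had 866, 703 and 721 in perfused kidneys, and the other organs ran from 579 to 3765 with a median of 1656. The difference was -1.06 (SE 0.11, adjusted p = 6.17e-16). Kidney was in place 53, below 50 organs and above 1 (liver, 579 ± 44.4). Rectum also had a lower mean (599 ± 68.2) and was not distinguished. Kidney stood at -2.11 SD of the organ means from their average. The kidneys without perfusion had 870.0, 889 and 861, and with them in place of the perfused kidneys the difference was -0.86, so the call was lost. It was lost as well with the 75th percentile over all miRNAs (-0.46) and in the authors' table (-0.76). miR-146b, induced in inflammation, had 19.8, 13.5 and 14.1 against a median of 51.6 and a highest mean of 235 ± 65.2 in cecum. Its difference was -1.87 (SE 0.16, adjusted p = 9.38e-20), with kidney below 50 organs and at -2.01 SD from their average. The signal in kidney was close to the floor, and with a floor 4 times as high the difference was -0.59, after normexp -0.91. miR-34a, known to be induced by p53, had 80.1, 60.8 and 77.2 and a difference of -1.85 (SE 0.21, adjusted p = 2.80e-13), against 5953 in testicle. let-7i and miR-146b were the only lower calls more than 2 SD below the organs.

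Some lower calls had by far their highest level in pancreas. miR-3584-5p had 13.1, 14.2 and 10.8 in kidney and 262362 in pancreas, with a difference of -2.05 (SE 0.62, adjusted p = 0.00288). miR-1224 and miR-494_v15.0 were also highest in pancreas and had differences of -1.09 and -1.35. These calls were open to the processing: miR-3584-5p lost its call under 1 of 27 alternatives (-1.16, with a floor 4 times as high), miR-1224 lost its call under 14 of 27 alternatives (up to -0.48) and miR-494_v15.0 under 11 of 27 (up to -0.74), for these 2 also without pancreas and without rat 4 or rat 5. Without pancreas 22 miRNAs were higher and 40 lower, of which 22 and 38 were calls of the full comparison. With the other organs first averaged within organ types and then over types, 22 were higher and 43 lower, and 22 and 33 of these were the same miRNAs.

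**Figure D3:**
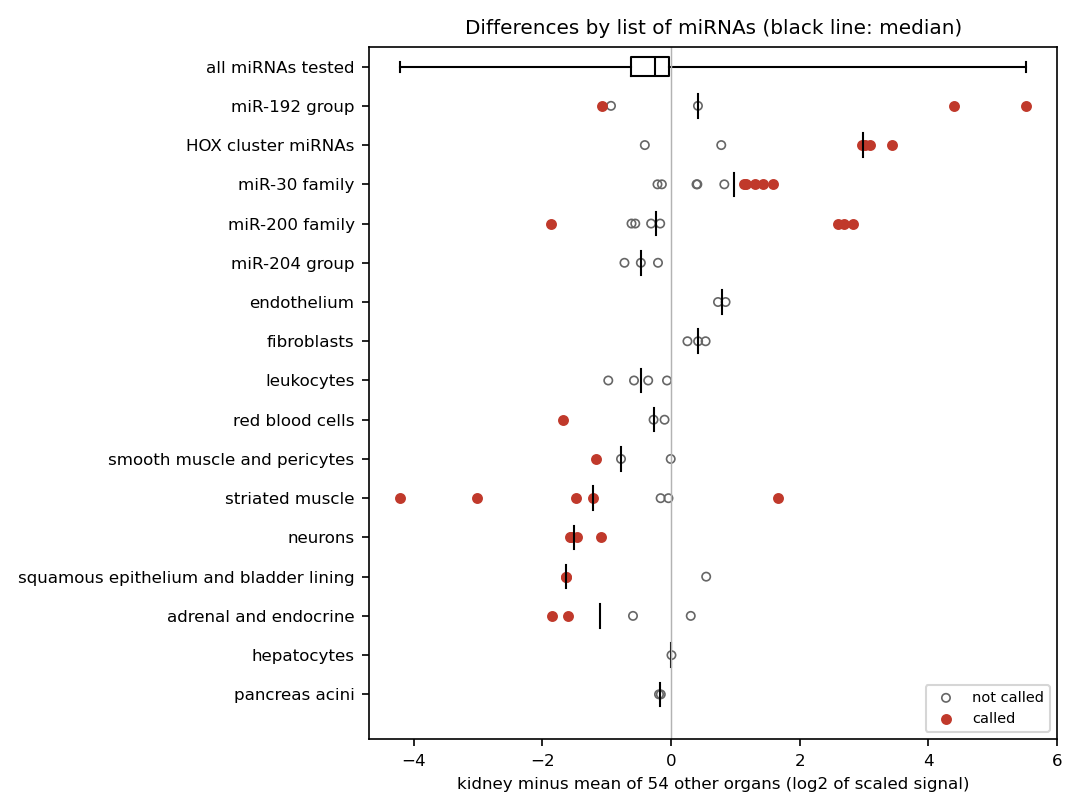
Log2 difference between kidney and the mean of 54 other organs for the members of each list of miRNAs (filled, called; open, not called; black line, median), under a box of all 345 miRNAs tested (box, quartiles; whiskers, full range). The HOX cluster list has the highest median, 2.99, and the list of neurons, at -1.51, lies wholly to the left of 0.

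In the main setting, the lists of markers of other cell types gave either no calls or only calls downward, except the muscle list, where miR-499 was higher. Among all miRNAs tested 6.38% were higher and 12.2% lower. The 2 endothelial miRNAs, miR-126 and miR-126*, were not called (0 of 2, median 0.79). They passed as higher under 2 of 27 and 3 of 27 alternatives (up to 1.46 and 1.29, with the 75th percentile over all miRNAs). miR-126 had 1332, 1092 and 1086 and 4329.8 ± 629 in lung. The 3 fibroblast miRNAs gave 0 calls (median 0.42; miR-199a-5p passed as higher under 1 of 27 alternatives, at 1.03 with the same scaling), and the 4 leukocyte miRNAs gave 0 calls (median -0.46), with miR-150 at -0.98. miR-150 passed as lower under 9 of 27 alternatives (down to -1.10, with organ types weighted equally), among them leaving out rat 4 (-1.03) or rat 6 (-1.08). Another leukocyte miRNA, miR-142-5p, passed as lower under 1 of 26 alternatives (down to -1.14). Of the 3 miRNAs of smooth muscle and pericytes, 1 was lower, miR-145 (13.3, 16.1 and 29.2, difference -1.17), and miR-143 (966, 845 and 1105) differed by -0.78. miR-145 lost its call under 7 of 27 alternatives (up to -0.53), among them leaving out rat 4 (-0.89). Of the 3 probe sets for squamous epithelium and bladder lining, the 2 of miR-205 were lower and miR-203 was not called. With a floor 4 times as high the call of miR-205 was lost (-0.99), and with a floor 4 times as low miR-203 passed as higher (1.15). Among 4 adrenal and endocrine miRNAs 2 were lower, miR-375 and miR-7a, which lost their calls under 1 of 26 and 2 of 27 alternatives. Of those not called, miR-7b passed as lower under 1 of 26 alternatives (down to -1.61). miR-542-3p passed as higher under 1 of 26 (up to 1.10). The scaled signals of the 4 leukocyte miRNAs summed to 355 to 485 in the perfused kidneys and 365 to 414 in the others, against a median of 509 over the other organs. The liver miRNA miR-122 had 10.8, 10.8 and 18.4 in kidney and was detected on 1 of 3, against 107094 in liver. The acinar miRNAs miR-216a and miR-217 were detected on 0 kidneys.

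Against single organs, between 15.1% and 46.7% of the 345 miRNAs were called, with a median of 25.8% over the 54 organs. Here p was adjusted within each organ. Thyroid had the highest correlation with kidney (r = 0.8924 over 345 miRNAs, which share arrays and floor), barely above lung (r = 0.8919). Between thyroid and kidney 22 miRNAs were higher in kidney and 30 lower (15.1%). Thyroid was at the floor for miR-192, miR-194, miR-196b and miR-196a, which were at least 168-fold, 50.9-fold, 18.3-fold and 15.7-fold higher in kidney. In the other direction no perfused kidney detected miR-335 or miR-375, which had 496 ± 34.3 and 471 ± 49.9 in thyroid. Against lung 25 were higher and 36 lower (17.7%). miR-192 was higher in kidney by 6.81 and miR-10b by 5.62, and lung was at the floor for miR-194. miR-146b was lower in kidney (-3.78), and miR-34b and miR-34c, which no perfused kidney detected, had 219 ± 81.4 and 166 ± 51.3 in lung. Bladder, which also belongs to the urinary tract, had r = 0.89, with 39 higher and 30 lower (20%). Bladder was at the floor for miR-192 and for miR-194, and miR-194, which no bladder array detected, was at least 56.2-fold higher in kidney. Lower in kidney than in bladder were miR-133b (-6.63), miR-145 (-5.24), miR-205 (-5.16) and miR-143 (-4.61). miR-133b, miR-145 and miR-205 were not detected on every perfused kidney, so the size of their differences depends on the floor. miR-10a-5p was 689 and miR-196b 196.5 in bladder. Pancreas was least like kidney (r = 0.47, 46.1% called), followed by thalamus with 46.7% called.

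**Figure D4:**
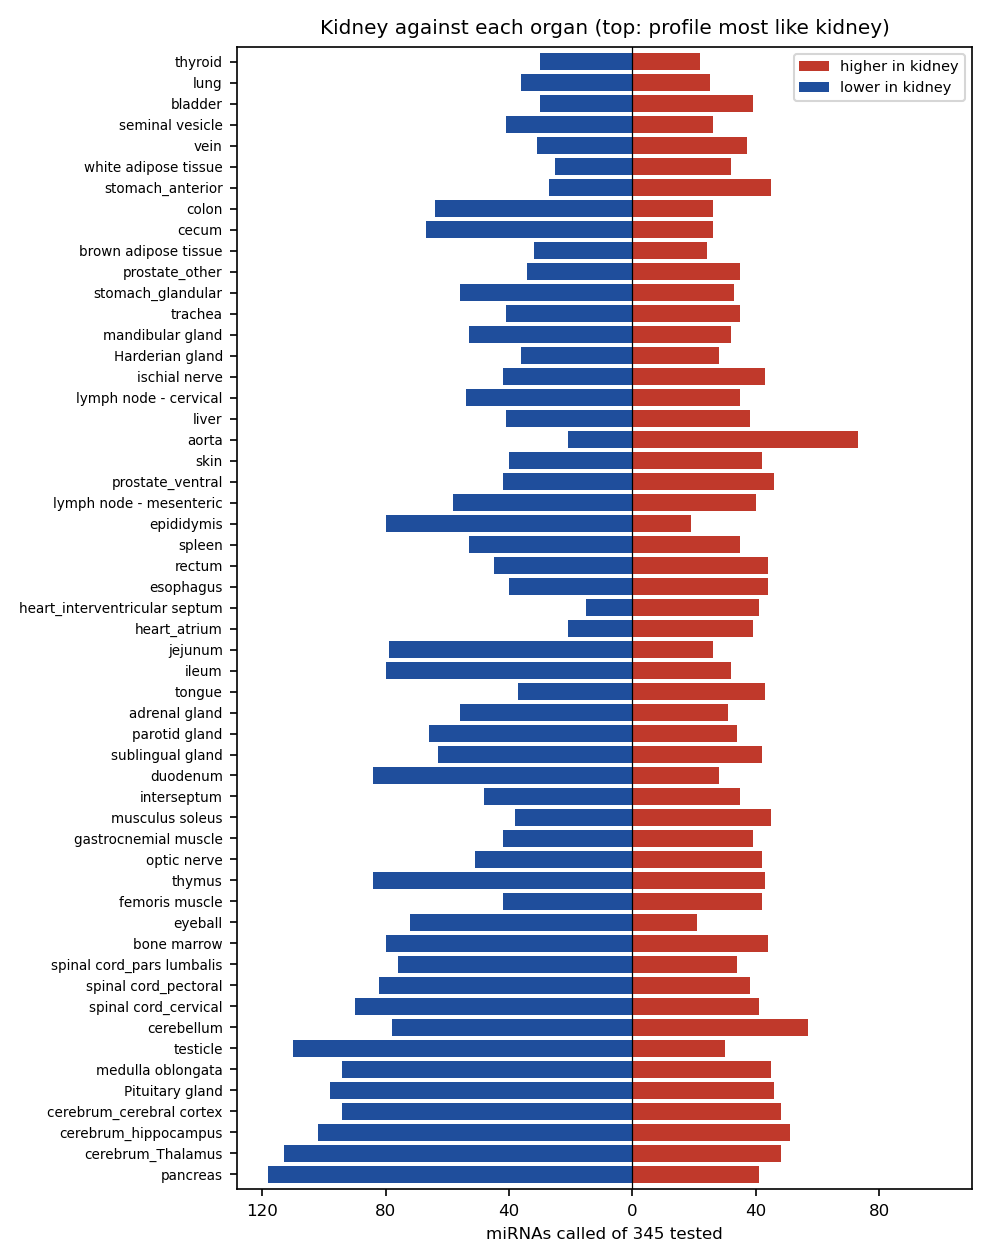
Number of miRNAs called higher (red, right) and lower (blue, left) in perfused kidney against each of 54 other organs, ordered by the correlation of the organ's mean log2 profile with kidney. Thyroid at the top has 52 calls, and thalamus and pancreas at the bottom have 161 and 159, most of them lower in kidney.

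The 3 kidneys without perfusion gave a repeat in other rats, against liver, lung, atrium and septum of the same rats. Of 191 miRNAs tested, 26 were higher (13.6%) and 19 lower (9.95%) in these kidneys. In the perfused rats the same comparison with 4 organs gave 27 higher (14.1%) and 20 lower (10.5%). The 2 sets of rats share no arrays. Both contrasts came from the same fit, though, with a shared estimate of the spread. The detection filter was also taken over both sets together, so the 2 lists of calls are not fully independent. All 26 higher calls of the repeat were also called in the perfused rats, which is 100% of the one list and 96.3% of the other, and 17 lower calls were shared (89.5% and 85%). None (0) were called in opposite directions. Of the 191 miRNAs, 5 entered the test only through detection in kidney, and 3 of these, miR-196a, miR-196b and miR-196c, were among the higher calls of both sets. Since such a miRNA could enter only by being present in kidney, the counts were also taken over the 186 others, where 23 were higher in the repeat, 24 in the perfused rats and 23 in both. Differences that rest on organs at the floor depend on where the floor was set, and atrium and septum were at the floor for miR-194, miR-200b, miR-200a and miR-429. Among the higher calls were miR-10b (6.10 in perfused rats and 6.05 in the others), miR-192 (5.06 and 4.87), miR-200b (4.64 and 4.70), miR-429 (4.50 and 4.64), miR-200a (4.43 and 4.47), miR-194 (4.15 and 4.11) and miR-10a-5p (3.31 and 3.02). miR-196b and miR-196a, which no array of the 4 organs detected, have only bounds here. miR-196b was at least 14.6-fold higher in perfused kidneys and 15.4-fold in the others, and miR-196a at least 12.5-fold and 13.3-fold. In liver, the organ of this set with the highest miR-192, the signals were 5406, 5471 and 5464 in rats 1 to 3, while lung had 15.1, 20.2 and 22.1. miR-203, miR-183 and miR-96 were higher in kidney in this comparison, at 1.96, 2.16 and 2.76 in rats 1 to 3. Of these, only miR-96 was also called higher against 54 organs. Lower calls in both sets held miR-133b (-5.86 and -5.70) and miR-1, which no kidney detected and for which the mean of the 4 organs was at least 32.9-fold and 37.0-fold higher, besides miR-122, miR-34a, miR-126 and miR-150. miR-126, which was not called against 54 organs, was -1.07 here, where lung and heart are among the 4 organs. The difference between both contrasts passed for 0 of 191 miRNAs in limma (2 at an unadjusted p under 0.05). These were miR-34a, at 0.67 (SE 0.22, adjusted p = 1), and miR-19a.

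**Figure D5:**
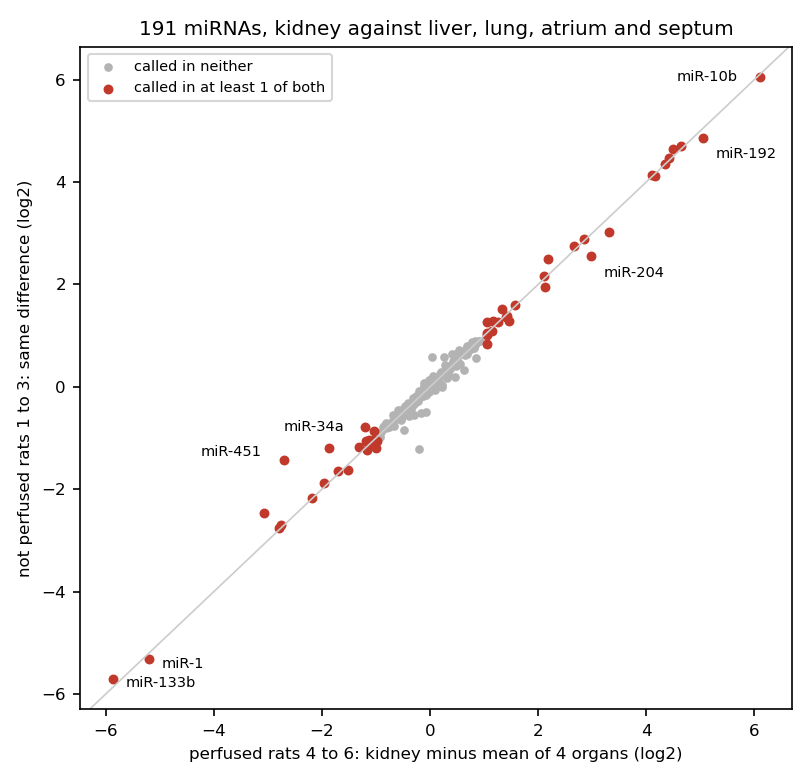
Log2 difference between kidney and the mean of liver, lung, atrium and septum for 191 miRNAs, in perfused rats 4 to 6 (horizontal axis) and in rats 1 to 3 without perfusion (vertical axis), with miRNAs called in either set in red and the line of equal values in grey. The points lie along that line, miR-10b and miR-192 at one end and miR-133b and miR-1 at the other, and miR-451 lies above it, at -2.70 and -1.43.

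When the 3 kidneys without perfusion took the place of the perfused kidneys against the same 54 perfused organs, 23 miRNAs were higher and 35 lower, of which 21 and 35 were also called with the perfused kidneys. Since the 54 organs are shared, this says only how the 2 sets of kidneys compare. miR-192 differed by 5.51, miR-10a-5p by 3.43, miR-130a by 1.70 and miR-30c by 1.37. miR-451 turned, from -1.68 with the perfused kidneys to 1.96 with the others. In the direct comparison of both sets of kidneys 0 of 191 miRNAs passed in limma (4 at an unadjusted p under 0.05), and the median absolute log2 difference was 0.07. miR-451, a miRNA of red blood cells, had the largest difference. It was 132, 163 and 227 in rats 1, 2 and 3 and 15.4, 10.8 and 15.0 in perfused rats 4, 5 and 6, so every kidney without perfusion was above every perfused kidney, with a log2 difference of 3.64 (SE 0.93, adjusted p = 0.149). An exact permutation test of 3 rats against 3 cannot give a p under 0.1. miR-144 and miR-144*, also of red blood cells, were detected on 0 kidneys of either set. The 3 miRNAs of the red blood cell list summed to 10.3 to 18.9 with perfusion and 139 to 238 without, and the part of blood in this difference was not tested. miR-672, miR-34a and miR-500 were the other miRNAs at an unadjusted p under 0.05, with differences of 0.24, 0.49 and 0.33 (adjusted p = 1). miR-34a was 83.8, 159.8 and 77.3 without perfusion, where rat 2 was high. Perfusion went with the rats and, for the most part, with the slides, and these cannot be told apart.

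Each slide that held a perfused kidney also held liver, lung, atrium, septum and skin of the same rat. Against the mean of these 5 organs all 22 miRNAs called higher against 54 organs were higher on 3 of 3 slides. The same kidney arrays gave the calls, and the 5 organs are among the 54, so this is not an independent test. Of the 42 called lower, 7 were above these organs on at least 1 slide, and 2 on 3 of 3. Some others, such as miR-124 and miR-215_v15.0, were at 0 on 3 of 3 slides, with kidney and these organs at the floor alike. miR-192 was higher by 5.90, 5.44 and 5.32 on the slides of rats 4, 5 and 6, miR-194 by 4.67, 4.46 and 4.33, miR-10a-5p by 3.02, 2.96 and 3.85, miR-196b by 4.25, 3.48 and 3.59, miR-200b by 4.30, 3.83 and 3.92, miR-130a by 1.34, 1.01 and 0.96 and miR-30c by 1.20, 1.06 and 1.02. miR-204, at -0.47 against 54 organs, was higher here, by 2.64, 2.25 and 2.07, and so were miR-141, by 0.78, 0.89 and 0.85, and miR-200c_v15.0, by 1.43, 1.33 and 1.29. miR-126, at 0.85 against 54 organs, was lower, at -0.58, -0.77 and -0.88. Among the lower calls miR-7a turned, at 0.56, 0.17 and 0.08, and miR-9, at 0.31, 0.13 and 1.14. Also in the neuron list, miR-9* was at 0, 0.06 and 0.48 and miR-128 at 0.11, -0.09 and -0.02. let-7i was lower, at -0.55, -0.80 and -0.75, and so was miR-146b, at -1.03, -1.74 and -1.69. miR-499 was close to 0, at 0.18, 0.28 and 0.09, with heart among these 5 organs.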

How the data were processed

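RNA of 180 rat organ samples was hybridised by the authors to 1-color (Cy3) miRNA arrays, and spots were read with Agilent Feature Extraction 10.7.3, as the submitters' processing notes give it. The deposited scanner files hold background-subtracted signal intensity per spot and flags for outlier spots and spots well above background, which the authors' software set. The authors' normalized table (715 of the 717 miRNAs of the design, linear intensity) served as an alternative. It equals the scanner's total gene signal times 1 factor per array.

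Outlier spots were left out, the intensity was averaged over spots and then over probe sequences, and each array was brought to a common 75th percentile, taken over 37 miRNAs that every one of the 180 arrays detected. Values under 10.8 were set to this floor, and log2 was taken. The number of arrays, 3 per organ, limits the precision. Tests used limma 3.58.1 in R 4.3.3 (lmFit and eBayes), over 345 miRNAs and 55 organs (165 arrays) or 191 miRNAs and 10 groups of 5 organs (30 arrays), with Benjamini-Hochberg adjustment and a minimum log2 difference of 1. Places in the order of organs are those of the mean log2 values and were not tested. Counts of organs above or below kidney used adjusted p alone, within each organ. Tested on simulated data, the fit over 55 organs recovered 97.2% of 50 miRNAs shifted by 1.5 (log2) and 100% of those shifted by 2. For a miRNA that no kidney detected, or no array of the organs compared, the fitted difference depends on the floor, and a bound of at least N-fold was taken against the lowest signal well above background or its own signal, whichever was higher.

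Organs with the same rat number came from the same animal, so the numbers pair samples. Deviations of kidney correlated at 0.05, 0.20 and 0.14 with those of the same rat's other organs. Alternatives covered scaling, floor, background (normexp on the median spot signal with an offset of 50), detection filters, rat, slide and scan day as blocks, and leaving out rats, pancreas and 8 arrays whose labels give 2 rat numbers. miRNAs were named by a rule (markers, the 10 largest calls in each direction, up to 5 of each list, the 5 lowest unadjusted p of each perfusion contrast), and 11 more (miR-130a, miR-96, miR-378, miR-378*, miR-99b, miR-125a-5p, miR-200c_v15.0, miR-136, miR-335, miR-494_v15.0 and miR-1224) after their values were seen. Further miRNAs in the text, such as miR-183, miR-30d, miR-34b and miR-34c, were outside both sets and were not followed through the alternatives. The members and lists were chosen with earlier results of these data known.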

Additional observations from a re-analysis of the deposited data

How the results depend on the processing

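The count of calls against 54 organs depended on scaling, floor and background. Main counts were 22 higher and 42 lower. The number higher was 50 with the 75th percentile over all miRNAs, 34 with quantile normalization, 34 in the authors' table, 34 with a floor 4 times as low, 10 after normexp and 58 with no minimum difference. The number lower was 26 with the 75th percentile over all miRNAs, 20 with a floor 4 times as high, 72 with a floor 4 times as low, 26 after normexp, 19 over miRNAs detected on at least 50% of arrays and 177 with no minimum difference. These scalings moved the median of all miRNAs from -0.25 to -0.08 (75th percentile over all), -0.13 (quantile), -0.14 (authors' table), -0.11 (floor 4 times as high), -0.35 (floor 4 times as low) and -0.44 (normexp). Calls higher in kidney were 34.4% of all calls in the main setting, 65.8% with the 75th percentile over all miRNAs, 51.5% with quantile normalization and in the authors' table, and 45.9% with the higher floor, at 17 higher. The cause was not tested.

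Against 4 organs, the perfused kidneys had 38 lower (75th percentile over all), 36 (authors' table), 13 (normexp) and 13 (at least 50% of arrays) in place of 20, and 9 higher after normexp in place of 27. The kidneys without perfusion had 34, 40, 4 and 11 lower in the same settings in place of 19. The difference between both contrasts passed for 2 miRNAs with quantile normalization, 1 with the median over all spots and 1 with no filter, and the 2 sets of kidneys differed in 1 (75th percentile over all), 3 (quantile), 2 (median over all spots) and 1 (no filter) miRNAs, against 0 in the main setting.

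Leaving out 1 rat, or only its kidney array, at a time gave 19 to 24 higher and 37 to 41 lower against 54 organs, 23 to 27 higher and 18 to 20 lower for perfused kidneys and 24 to 26 higher and 16 to 21 lower for the others against 4 organs, 0 to 1 for the difference of contrasts and 0 to 2 between the 2 sets of kidneys. With the rat as replicate block the calls against 54 organs were the same 22 and 42 miRNAs, lower calls without perfusion were 20, and no other count changed. The comparison between perfused and other kidneys lies between rats and has no blocked value. Among called miRNAs that were followed through the alternatives, directions turned for miR-30c-2* (-0.045 with the higher floor and -0.23 after normexp), miR-378* (-0.10, normexp), miR-499 (-0.10, normexp), miR-9 (0.025, lower floor) and miR-451 (1.96, with the kidneys without perfusion). Among named miRNAs that were not called, the sign turned under at least 1 alternative for 18, among them miR-204 (0.10 with the 75th percentile over all), miR-196c (-0.24 with the higher floor, -0.41 after normexp), miR-192* (-0.21 and -0.47), miR-203 (-0.49 and -0.64), miR-126* (-0.15, normexp), miR-141 (0.22, lower floor) and miR-200c_v15.0 (0.23 with the 75th percentile over all, 0.04 in the authors' table and 0.35 with the lower floor). The cause was not tested. Levels under the floor could not be ordered.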
